A study of Homo sapiens with 12 samples.

Results

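The genes described here are 10 members of the BCL2 family, chosen by symbol. They are the pro-survival genes BCL2, BCL2L1, MCL1 and BCL2A1, the BH3-only genes BCL2L11, BBC3, PMAIP1, BMF and BID, and the effector gene BAX. All 10 were found among the 19907 genes with values, and all 10 were among the 15957 genes that passed the filter on low values and were tested. They were measured by RNA sequencing in MDA-MB-231, an established human breast cancer line of the triple-negative kind, in which serine at one site of the glucocorticoid receptor (GR) was changed to alanine. The question set by the study's design was how that site bears on the response to dexamethasone (Dex), a synthetic glucocorticoid.

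There were 4 groups of 3 libraries. S134A-GR Dex cells expressed the mutant receptor and received 1 µM Dex for 6 h, and S134A-GR vehicle cells expressed the same receptor and received vehicle for 6 h. WT-GR Dex cells expressed the wild-type receptor and received Dex in the same way, and WT-GR vehicle cells received vehicle. Every culture had first spent 18 h in IMEM with 1% DCC, so no group was kept in full medium. Whether the receptors were expressed beside the cells' own receptor, and whether each genotype is 1 clone, was not given in these sources. A genotype difference and a difference between separately derived cultures cannot be told apart. No label tells whether the 3 replicates were grown as separate cultures. The p-values therefore measure only the spread between these libraries, which may be technical.

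BCL2 family proteins decide at the outer mitochondrial membrane whether a cell enters intrinsic apoptosis. The pro-survival proteins BCL2, BCL-XL (the main product of BCL2L1), MCL1 and BFL1 (the product of BCL2A1) hold back the effectors BAX and BAK, which otherwise form pores that release cytochrome c. BH3-only proteins are the triggers: BIM (BCL2L11), PUMA (BBC3), NOXA (PMAIP1), BMF and BID bind the pro-survival proteins, and some also activate the effectors directly. Glucocorticoids are known for killing lymphoid cells, where induction of BIM takes part, whereas in epithelial breast cancer cells they are known for protecting against drug-induced death.

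Values are normalized read counts, meaning reads of a gene over the library's size factor, and are called normalized reads below. The libraries held 56.4 to 100.6 M recovered reads, with WT-GR vehicle replicate 1 and WT-GR Dex replicate 1 the shallowest at 56.4 and 56.9 M. The deposited Dex tables carry gene names that are shifted against their values, so the names of the vehicle tables were used by line order for all Dex values. WT-GR Dex replicates 2 and 3 stood apart in that only 193 and 210 genes had exactly 1 read, against 352 to 409 genes in the other 10 libraries. Results that turn on these 2 libraries are given with and without them. Without both, WT-GR Dex holds 1 library, replicate 1, which the fit assumes to vary like the other groups. Of 6 glucocorticoid-induced genes listed as a check of treatment, 5 were found, and all 5 rose with Dex in both genotypes, TSC22D3 with log2 differences of 4.3 in S134A-GR and 4.37 in WT-GR cells. NR3C1, the receptor's own gene, averaged 7784 ± 495 normalized reads in S134A-GR Dex, 8815 ± 259 in S134A-GR vehicle, 9389 ± 784 in WT-GR Dex and 11771 ± 1186 in WT-GR vehicle (SD, n = 3 each). The line's mesenchymal marker VIM averaged 372616 to 428768 in the 4 groups, and ESR1, the oestrogen receptor gene, 0.0 to 3.24. CDH1 and ERBB2 were listed, like ESR1, as low or absent in this line. CDH1 averaged 2.45 to 12.4, whereas ERBB2 averaged 8891 to 11482 and so went the other way. Summed levels of 4 fibroblast markers were 3353 to 3674 in S134A-GR Dex, 4064 to 4309 in S134A-GR vehicle, 3103 to 4031 in WT-GR Dex and 3156 to 3565 in WT-GR vehicle libraries. Of these, COL1A1 was higher in S134A-GR cells, by 0.96 in Dex and 0.99 in vehicle (limma adjusted p = 4.59e-05 and 3.41e-05). PDGFRB was lower, at -0.6 in Dex and -0.16 in vehicle (limma adjusted p = 2.6e-05 and 0.0897). DCN did not pass between genotypes. LUM was at 0 in every S134A-GR library and averaged 1.14 in WT-GR Dex and 3.2 in WT-GR vehicle. Of 6 luminal markers 5 were found, with summed levels of 97799.9 to 108183 in S134A-GR Dex, 95354 to 101303 in S134A-GR vehicle, 112047 to 131614 in WT-GR Dex and 97615 to 104571 in WT-GR vehicle libraries. The part of these other markers in the results was not tested.

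Promoter sequences are shown for the members whose mRNA changed with Dex in both genotypes, since these are the genes on which the treatment result turns. Of the 10 members 9 matched a RefSeq promoter entry (GRCh38.p14, 250 bases before and 50 after the start), and MCL1 did not. The stretches are chr20:31723914-31724213 on the minus strand for BCL2L1, chr15:79971147-79971446 on the minus strand for BCL2A1, chr2:111120664-111120963 on the plus strand for BCL2L11 and chr18:59899746-59900045 on the plus strand for PMAIP1. Each is written 5′ to 3′ along the gene, and capitals mark a match to one of the motifs searched.
BCL2L1: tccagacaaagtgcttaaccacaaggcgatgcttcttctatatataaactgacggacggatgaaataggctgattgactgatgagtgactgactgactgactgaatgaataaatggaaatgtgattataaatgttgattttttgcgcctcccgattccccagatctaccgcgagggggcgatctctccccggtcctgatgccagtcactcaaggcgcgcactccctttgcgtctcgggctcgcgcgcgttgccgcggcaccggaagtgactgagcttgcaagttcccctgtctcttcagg
BCL2A1: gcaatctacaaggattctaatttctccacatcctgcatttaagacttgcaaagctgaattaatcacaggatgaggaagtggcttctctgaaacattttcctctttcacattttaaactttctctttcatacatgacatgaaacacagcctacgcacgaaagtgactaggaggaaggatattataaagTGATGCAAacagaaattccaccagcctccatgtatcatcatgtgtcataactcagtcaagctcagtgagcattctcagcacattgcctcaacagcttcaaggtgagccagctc
BCL2L11: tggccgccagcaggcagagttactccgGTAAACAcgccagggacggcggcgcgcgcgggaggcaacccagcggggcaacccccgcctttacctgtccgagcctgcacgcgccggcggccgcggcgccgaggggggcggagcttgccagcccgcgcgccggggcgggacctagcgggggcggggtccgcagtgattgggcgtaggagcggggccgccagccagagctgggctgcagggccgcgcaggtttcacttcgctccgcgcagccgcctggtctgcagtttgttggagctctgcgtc
PMAIP1: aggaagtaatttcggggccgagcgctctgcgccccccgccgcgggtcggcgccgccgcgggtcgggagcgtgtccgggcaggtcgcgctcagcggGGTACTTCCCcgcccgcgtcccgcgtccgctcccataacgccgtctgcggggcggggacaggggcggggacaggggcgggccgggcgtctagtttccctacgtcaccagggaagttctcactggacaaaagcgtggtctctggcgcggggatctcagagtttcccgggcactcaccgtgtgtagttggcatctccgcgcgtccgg

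Both strands were searched for a full glucocorticoid receptor element (AGAACA and, 3 bases on, TGTTC), its shorter part AGAACA alone, an NF-kB motif (GGGA and CC, 4 bases apart), an ATF4 and CEBP motif (TGATG, any base, AA) and a FOXO motif (TGTTTAC). The full element stood in 0.0114% of 35116 RefSeq promoters, AGAACA in 14.8%, the NF-kB motif in 25.6%, the ATF4 and CEBP motif in 3.62% and the FOXO motif in 3.42%. AGAACA is contained in the full element. Neither GR motif stood in any of the 9 windows, and BCL2L1 held none of the motifs. BCL2A1 held the ATF4 and CEBP motif 63 to 56 bases before the start. BCL2L11 held the FOXO motif on the other strand 223 to 217 bases before it, and PMAIP1 the NF-kB motif on the other strand 155 to 146 bases before it. Of the promoters not printed, BCL2 and BMF held the NF-kB motif, and BBC3, BID and BAX held none. The windows also differ in composition: PMAIP1 and BCL2L11 were 71.3% and 74.7% G and C, BCL2L1 52.0% and BCL2A1 41.0%, where the median of all promoters was 58.7%. These matches describe letters in short windows and say nothing of binding.

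The strongest pattern across the family was a rise of the pro-survival genes BCL2L1 and MCL1 with Dex in both genotypes, beside a fall of the pro-survival gene BCL2A1 and of the BH3-only genes PMAIP1 and BCL2L11. In S134A-GR cells 6 of the 10 members passed the threshold of an adjusted p under 0.05 in limma's test, 2 higher and 4 lower, and 15.7% of all tested genes passed it. In WT-GR cells 6 passed, 3 higher and 3 lower, and 27.9% of all tested genes passed. The Dex and vehicle values did not overlap for 7 members in S134A-GR cells, where this held for 38.6% of all genes, and for 7 in WT-GR cells, where it held for 35.1%. The median log2 difference of the members was -0.22 in S134A-GR cells and 0.03 in WT-GR cells, and that of all tested genes was -0.02 in both. The comparisons of treatment and of genotype share libraries with one another and are not independent. These are levels in whole cultures, in which fewer cells expressing a gene and less RNA per cell cannot be told apart.

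**Figure D1:**
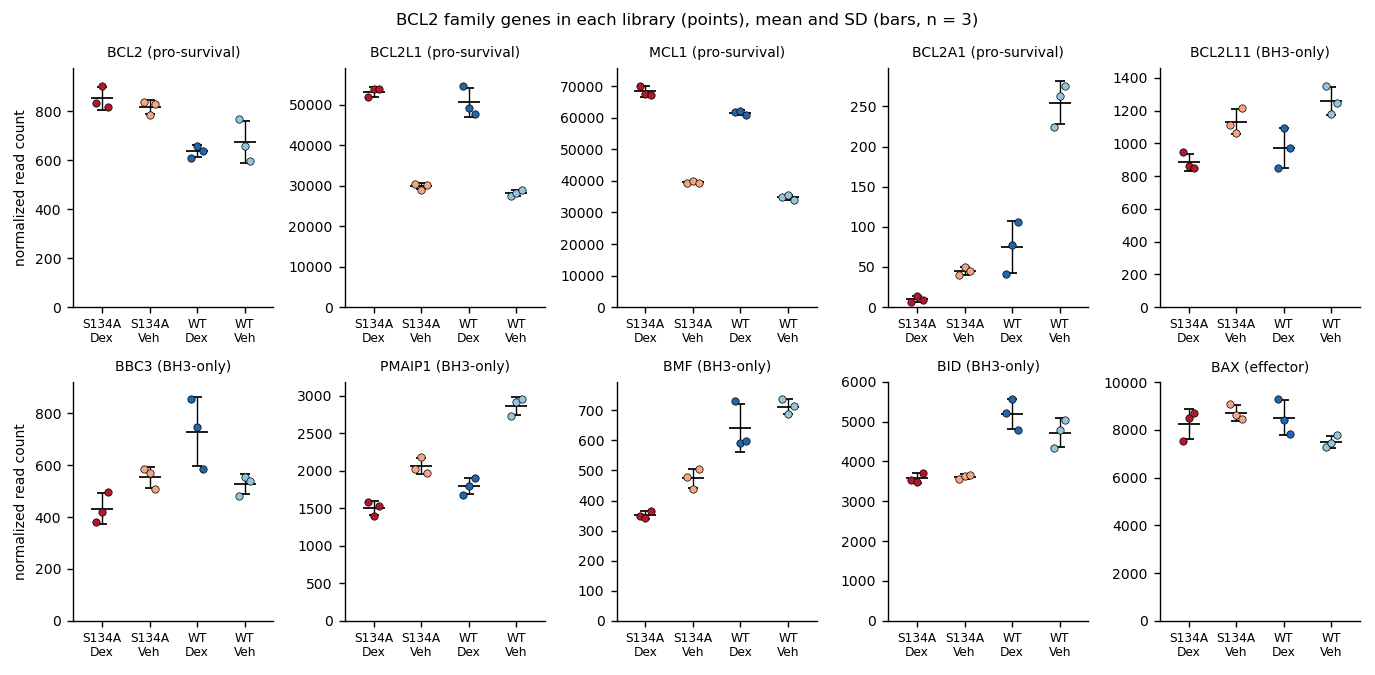
Normalized read counts (y axes, from 0) of the 10 genes in the 4 groups (x axes), with points for libraries and bars for the mean and SD of 3. BCL2L1 and MCL1 sit higher in every Dex library than in every vehicle library of either genotype, while BCL2A1 lies at 6.34 to 14.0 in S134A-GR Dex libraries and at 225 to 276 in WT-GR vehicle libraries.

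BCL2L1 (chr20:31664452-31723989, minus strand, GRCh38, 4 merged exons) had 51851, 53826 and 54013 normalized reads in the S134A-GR Dex libraries, against 30411, 29039.7 and 30296 in S134A-GR vehicle. In WT-GR Dex libraries it had 54745, 49337 and 47849, against 27418, 28275 and 28879 in WT-GR vehicle. Every Dex library lay above every vehicle library of either genotype. The mean was 1.78-fold higher with Dex in S134A-GR cells and 1.8-fold higher in WT-GR cells, and the log2 differences were 0.83 ± 0.05 and 0.84 ± 0.05 (SE, limma adjusted p = 2.73e-08 and 2.33e-08). The response in S134A-GR cells minus that in WT-GR cells was -0.01, with a 95% interval of -0.16 to 0.14 (limma adjusted p = 0.945). Of BCL2L1's exon bases 43.0% are shared with the antisense gene ABALON, which averaged 2275 ± 214 normalized reads in S134A-GR Dex, against 1306 ± 17 in S134A-GR vehicle, with 2705 ± 352 in WT-GR Dex, against 1393 ± 25 in WT-GR vehicle (SD, n = 3 each). ABALON rose with Dex by 0.8 in S134A-GR cells and by 0.95 in WT-GR cells on the log2 scale (limma adjusted p = 1.79e-05 and 3.28e-06). Whether strand was used in counting is not given in the sources used here, so the reads of these genes cannot be fully told apart.

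MCL1 (chr1:150574551-150579738, minus strand), whose short-lived protein is a sensor of translation and stress, moved by nearly the same amount. It had 70228, 67549 and 67357 normalized reads in S134A-GR Dex, against 39361, 40045 and 39274 in S134A-GR vehicle. In WT-GR cells it had 61935, 62244 and 60935 with Dex, against 34928, 35426 and 33963 in vehicle. The libraries of each group lay close together, and Dex libraries stood above all vehicle libraries. The rise was 1.73-fold in S134A-GR cells and 1.77-fold in WT-GR cells (log2 0.79 ± 0.04 and 0.83 ± 0.04, limma adjusted p = 1.47e-09 and 1.08e-09). The difference of these responses was -0.04, with a 95% interval of -0.15 to 0.07 (limma adjusted p = 0.709).

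BCL2A1 (chr15:79960889-79971446, minus strand), best known as an NF-kB target of blood cells, moved the opposite way from the other pro-survival members that changed. The pro-survival gene BCL2L2, not among the members, also fell with Dex (-0.25 in S134A-GR and -0.2 in WT-GR cells). BCL2A1 had 6.34, 14.0 and 9.42 normalized reads in S134A-GR Dex, from 6, 16 and 10 recovered reads. In S134A-GR vehicle it had 39.6, 49.7 and 45.4. In WT-GR Dex libraries it had 41.0, 76.9 and 105.8, against 225, 263 and 276 in WT-GR vehicle. The 4 groups are thus ordered, with S134A-GR Dex lowest, S134A-GR vehicle and WT-GR Dex overlapping, and WT-GR vehicle highest. The mean with Dex was 0.221 of the vehicle mean in S134A-GR cells and 0.293 of it in WT-GR cells (log2 differences -2.13 ± 0.33 and -1.86 ± 0.33, limma adjusted p = 0.000429 and 0.00116). Its log2 difference was the 27th lowest of the 15957 tested genes in S134A-GR cells and the 154th lowest in WT-GR cells. The difference of the responses was -0.27, with the wide interval of -1.29 to 0.75 (limma adjusted p = 0.792). It was 0.47 without WT-GR Dex replicates 2 and 3, and 0.03 without WT-GR Dex replicate 3 alone, so its direction is not fixed by these data.

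Because BCL2A1 is mainly a gene of blood cells, blood markers are given beside it. Of 5 listed markers 3 were found (PTPRC, CD14 and LYZ). Their summed level was 20.7 to 22.2 normalized reads in S134A-GR Dex, 34.9 to 38.5 in S134A-GR vehicle, 54.6 to 73.9 in WT-GR Dex and 50.5 to 51.8 in WT-GR vehicle libraries. The defining leukocyte gene PTPRC averaged 3.46, 7.18, 8.76 and 3.86 in the same groups. No found marker was at 0 in every library of a group, none of the tested ones passed the threshold for Dex in either genotype, and their part in the BCL2A1 result was not tested.

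BCL2 itself (chr18:63123346-63320128, minus strand), the founding member, did not pass the threshold for Dex in either genotype. It had 836, 905 and 818 normalized reads in S134A-GR Dex and 839.8, 787 and 829 in S134A-GR vehicle, with a log2 difference of 0.06 and a 95% interval of -0.14 to 0.26 (limma adjusted p = 0.792). WT-GR libraries had 611, 659.8 and 639.7 with Dex and 767, 659 and 598 in vehicle, with a difference of -0.08 and an interval of -0.28 to 0.12 (limma adjusted p = 0.571). The treatment groups overlapped in both genotypes.

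**Figure D2:**
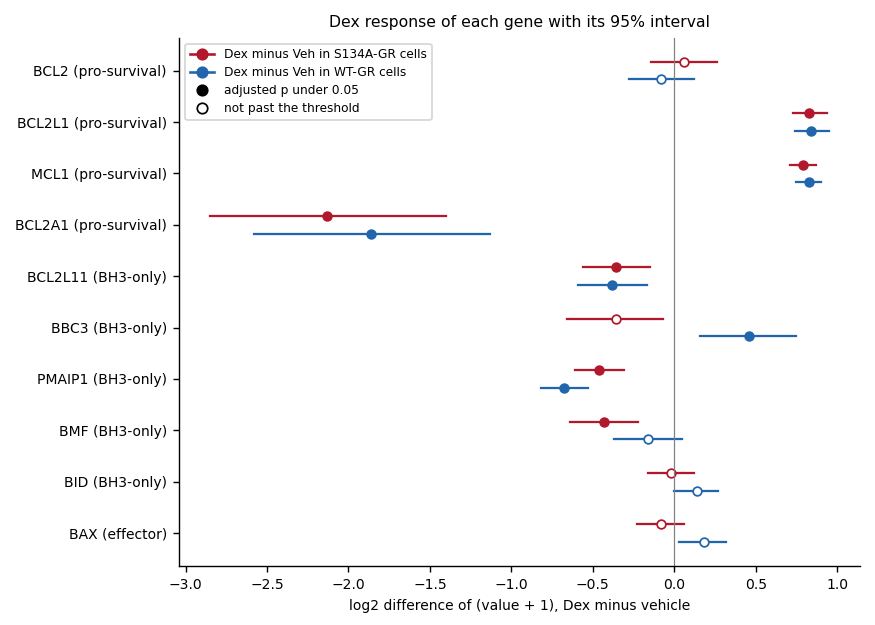
Log2 difference of (value + 1), Dex minus vehicle (x axis), of each gene (rows) with its 95% interval, in S134A-GR cells (red) and WT-GR cells (blue), filled where the adjusted p is under 0.05. BCL2L1 and MCL1 lie between 0.79 and 0.84, BCL2A1 at -2.13 and -1.86, and BBC3 on opposite sides of 0, at -0.36 and 0.46.

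Among the BH3-only genes, PMAIP1 (chr18:59899948-59904306, plus strand), whose protein NOXA binds and neutralizes MCL1, fell with Dex in both genotypes. It had 1579, 1402 and 1526 normalized reads in S134A-GR Dex, against 2028, 2191 and 1975 in S134A-GR vehicle. WT-GR libraries had 1683, 1796 and 1898 with Dex, against 2732.5, 2915 and 2952 in vehicle. No Dex library reached the lowest vehicle library of its genotype. The log2 differences were -0.46 ± 0.07 in S134A-GR cells and -0.68 ± 0.07 in WT-GR cells (limma adjusted p = 0.000252 and 6.32e-06). Their difference of 0.22, with an interval of 0.01 to 0.43, had an unadjusted p of 0.0399 and did not pass after adjustment (limma adjusted p = 0.268).

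BCL2L11 (chr2:111119378-111168447, plus strand), whose protein BIM binds all the pro-survival proteins, fell in both genotypes too, by less. It had 945, 861 and 847 normalized reads in S134A-GR Dex, against 1115, 1064 and 1219 in S134A-GR vehicle. WT-GR libraries had 850.2, 1095 and 969 with Dex, against 1352, 1181 and 1247 in vehicle. The groups did not overlap in either genotype, though WT-GR Dex replicate 2 lay close to the lowest vehicle library. The log2 differences were -0.36 ± 0.1 and -0.38 ± 0.1 (limma adjusted p = 0.0211 and 0.0102). The call in S134A-GR cells was lost without S134A-GR vehicle replicate 1 or 3, or Dex replicate 2 or 3, at adjusted p = 0.0585, 0.103, 0.0744 and 0.0841 in limma's test, over a range of 0.00021 to 0.103 in all alternatives. In WT-GR cells it was lost with library weights, at -0.22 (limma adjusted p = 0.0572, over a range of 0.0014 to 0.0572). Of BCL2L11's exon bases 10.9% are shared with MIR4435-2HG on the opposite strand, which fell with Dex in S134A-GR cells by 0.25 on the log2 scale.

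BMF (chr15:40087890-40108892, minus strand), a BH3-only gene whose protein is held at the cytoskeleton, passed for Dex in S134A-GR cells. It had 348, 340.4 and 366 normalized reads in S134A-GR Dex, against 479.8, 439 and 503 in S134A-GR vehicle, with no overlap (log2 difference -0.43 ± 0.1, limma adjusted p = 0.00817). WT-GR libraries had 732, 591 and 598 with Dex, and 736, 687 and 715 in vehicle, so that replicate 1 overlapped vehicle and replicates 2 and 3 lay below it. The WT-GR difference was -0.16 (limma adjusted p = 0.246), and it was 0.04 without WT-GR Dex replicates 2 and 3. The difference of responses, -0.27 with an interval of -0.57 to 0.03, did not pass (limma adjusted p = 0.334), and was -0.47 without those 2 libraries, with 1 WT-GR Dex library left (limma adjusted p = 0.0421).

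BBC3 (chr19:47220822-47232766, minus strand), whose protein PUMA binds all the pro-survival proteins, differed in sign between the genotypes without overlap of Dex and vehicle values in either. BCL2, BID and BAX also had differences of opposite sign, with overlapping groups in at least 1 genotype. It had 380.4, 420.1 and 496 normalized reads in S134A-GR Dex, and 583, 569 and 508 in S134A-GR vehicle. WT-GR libraries had 854, 749 and 587 with Dex, and 482, 555 and 540.2 in vehicle. All S134A-GR Dex libraries lay below their vehicle libraries, and all WT-GR Dex libraries lay above theirs, with replicate 3 of each Dex group nearest to vehicle. The log2 difference was -0.36 ± 0.14 in S134A-GR cells, which did not pass (limma adjusted p = 0.1), and 0.46 ± 0.14 in WT-GR cells, which passed (limma adjusted p = 0.024). In S134A-GR cells it passed with library weights (-0.29, limma adjusted p = 0.0227) and without WT-GR Dex replicate 3 (-0.36, limma adjusted p = 0.0356).

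The rise of BBC3 in WT-GR cells rests on few libraries. Its call was lost without WT-GR vehicle replicate 1 (0.4, limma adjusted p = 0.0884), without WT-GR Dex replicate 1 (0.34, limma adjusted p = 0.099), without WT-GR Dex replicate 2 (0.43, limma adjusted p = 0.0655), and with only the compared groups in the fit (limma adjusted p = 0.0628). The range over all alternatives was 0.00233 to 0.099. The S134A-GR minus WT-GR difference of the responses was -0.82 ± 0.19, with a 95% interval of -1.24 to -0.4 and an unadjusted p of 0.00093, and did not pass in limma's test (adjusted p = 0.0914). It passed in DESeq2 (adjusted p = 0.00399), with library weights (-0.72, limma adjusted p = 0.00929) and without WT-GR Dex replicate 3 (-0.97, limma adjusted p = 0.0138). Without WT-GR Dex replicates 2 and 3 it was -1.06 (limma adjusted p = 0.0181), a value that sets 1 WT-GR Dex library, the one with the most BBC3, against the rest. The difference was negative under all 22 alternatives in which it could be fitted, between -1.06 and -0.7, with adjusted p from 0.00399 to 0.248.

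BID (chr22:17734138-17774770, minus strand), which links death receptors to mitochondria once caspase 8 cuts its protein, did not pass for Dex. S134A-GR libraries had 3522, 3493 and 3716 normalized reads with Dex and 3551, 3644 and 3656 in vehicle, with a log2 difference of -0.02 and an interval of -0.16 to 0.12 (limma adjusted p = 0.927). WT-GR libraries had 5215, 5556 and 4791 with Dex and 4331, 4793 and 5047 in vehicle. Their difference was 0.14, with an interval of 0.0 to 0.27 (limma adjusted p = 0.137). A call for BID in WT-GR cells was gained with library weights (0.17, limma adjusted p = 0.0196). One was also gained without WT-GR Dex replicate 3 (0.19, limma adjusted p = 0.0297). The effector BAX (chr19:48954815-48961798, plus strand) had 7549.7, 8487 and 8701 in S134A-GR Dex and 9093, 8632 and 8438 in S134A-GR vehicle, groups that overlap (log2 difference -0.08, limma adjusted p = 0.517). In WT-GR Dex libraries BAX had 9277, 8419.9 and 7819.9, above all WT-GR vehicle libraries at 7295, 7435 and 7767. That difference of 0.18 did not pass in limma (adjusted p = 0.0613) and passed in edgeR with TMM scaling and in DESeq2 (adjusted p = 0.0482 and 0.0466). In limma it passed with library weights (0.19, adjusted p = 0.00886) and without WT-GR Dex replicate 3 (0.24, adjusted p = 0.0124). It also passed without S134A-GR Dex replicate 1 (0.18, limma adjusted p = 0.0394). Without WT-GR Dex replicates 2 and 3 it was 0.31.

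In limma's test of the difference between the Dex responses, 0 of the 10 members passed, while 3 had an unadjusted p under 0.05 (BBC3, PMAIP1 and BAX). Over all genes 0.414% passed. edgeR called 0 members with TMM scaling and 0 with scaling by library size only, and DESeq2 called 1, BBC3, where it called 4.14% of the genes to which it gave an adjusted p. Library weights gave 2, and leaving out WT-GR Dex replicate 3 also gave 2 (BBC3 and BAX in both cases). With only replicate 1 kept in WT-GR Dex, 3 passed (BBC3, BAX and BMF). In these 3 settings 17.9%, 10.1% and 16.0% of all genes passed, so the higher counts come with a higher background. A p above the threshold does not show equal responses. The intervals allow a log2 difference of at most 0.16 in size for BCL2L1 and 0.15 for MCL1, and of up to 1.29 for BCL2A1.

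Between genotypes BCL2A1, BMF, BID and PMAIP1 were lower in S134A-GR cells in both conditions, and BCL2 and MCL1 higher. In Dex 7 of the 10 members passed in S134A-GR against WT-GR cells, 2 higher and 5 lower, where 49.7% of all tested genes passed. In vehicle 7 passed, 3 higher and 4 lower, where 50.5% of all genes passed. The values of the 2 genotypes did not overlap for 7 members in Dex and for 8 in vehicle, against 52.4% and 64.3% of all genes. BH3-only members were among the lower ones: 4 of 5 fell below WT-GR levels in Dex and 3 of 5 in vehicle, with none higher. Of all 15957 tested genes, 4201 were lower and 3730 higher in Dex, and 4257 lower and 3804 higher in vehicle. The median log2 differences of the BH3-only members were -0.53 and -0.38, against 0.01 over all tested genes in both.

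**Figure D3:**
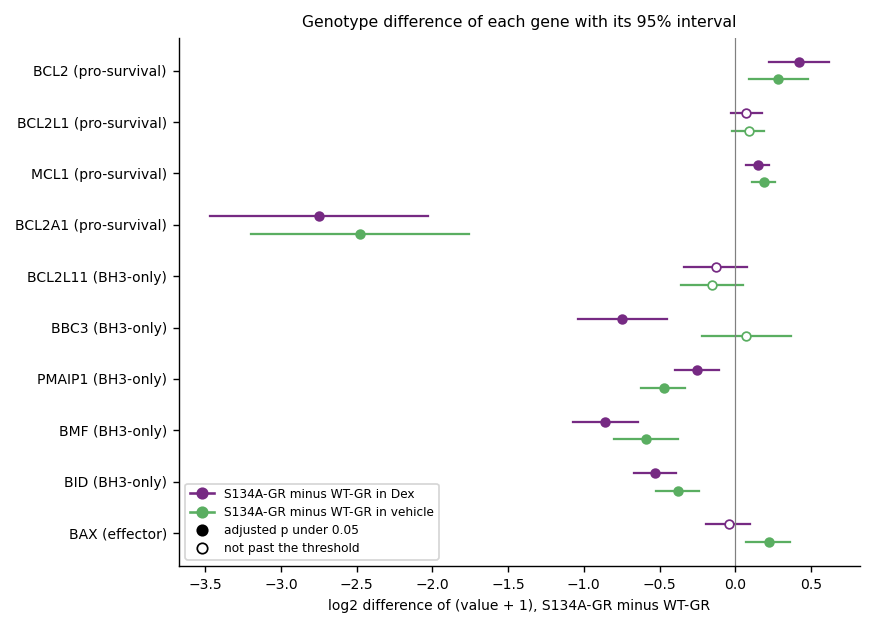
Log2 difference of (value + 1), S134A-GR minus WT-GR (x axis), of each gene (rows) with its 95% interval, in Dex (purple) and in vehicle (green), filled where the adjusted p is under 0.05. BCL2A1 stands farthest from 0, at -2.75 and -2.48, and BMF, BID and PMAIP1 are negative in both conditions.

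The largest genotype difference among the members was that of BCL2A1, whose mean in S134A-GR cells was 0.133 of that in WT-GR cells in Dex and 0.176 of it in vehicle (log2 differences -2.75 ± 0.33 and -2.48 ± 0.33, limma adjusted p = 1.7e-05 and 4.01e-05). Of the 3 blood markers found, CD14 was lower too, at -2.25 in Dex and -2.58 in vehicle (limma adjusted p = 0.0132 and 0.00571), from means of 4.41 in S134A-GR Dex against 34.0 in WT-GR Dex. In vehicle the means were 4.62 in S134A-GR cells against 30.4 in WT-GR cells. LYZ did not pass, at -0.4 in Dex and 0.56 in vehicle (limma adjusted p = 0.485 and 0.322). PTPRC, too low to be tested, averaged 3.46 in S134A-GR Dex against 8.76 in WT-GR Dex, and in vehicle 7.18 in S134A-GR against 3.86 in WT-GR cells. The part of these markers in the BCL2A1 result was not tested. BMF was lower in S134A-GR cells by 0.86 in Dex and 0.59 in vehicle on the log2 scale (limma adjusted p = 1.06e-05 and 0.000244). BID was lower by 0.53 and 0.38 (limma adjusted p = 1.62e-05 and 0.000257), with every S134A-GR library below every WT-GR library.

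PMAIP1 was lower in S134A-GR cells by 0.25 in Dex and 0.47 in vehicle (limma adjusted p = 0.00697 and 6.68e-05). In Dex it did not pass in edgeR when only library size was used for scaling (-0.14, adjusted p = 0.121), nor in limma when WT-GR Dex replicates 2 and 3 were left out (-0.17, adjusted p = 0.142), over a range of 0.00127 to 0.142. BBC3 was lower in Dex, at -0.75 ± 0.14 (limma adjusted p = 0.000514), and its difference in vehicle was 0.07 with an interval of -0.22 to 0.37 (limma adjusted p = 0.683). The difference between these 2 values is the response difference of -0.82 given above. BCL2L11 did not pass in either condition, at -0.13 and -0.15 (limma adjusted p = 0.281 and 0.203).

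The pro-survival genes other than BCL2A1 were at or above WT-GR levels. BCL2 was higher in S134A-GR cells by 0.42 ± 0.09 in Dex and 0.28 ± 0.09 in vehicle (limma adjusted p = 0.00196 and 0.0198). The vehicle call was lost without WT-GR vehicle replicate 2 or 3, or S134A-GR vehicle replicate 1 or 3, at values of 0.27, 0.2, 0.27 and 0.28 and limma adjusted p = 0.0604, 0.0933, 0.0666 and 0.0583, over a range of 7.3e-05 to 0.0933. MCL1 was higher by 0.15 ± 0.04 in Dex and 0.19 ± 0.04 in vehicle (limma adjusted p = 0.00333 and 0.000607). BCL2L1 did not pass in limma, at 0.07 and 0.09 (adjusted p = 0.228 and 0.164). With library weights it passed in both conditions (0.1 and 0.09, limma adjusted p = 0.0472 and 0.0028). In Dex it also passed without WT-GR Dex replicate 1 (0.13, limma adjusted p = 0.0164), and was -0.04 without WT-GR Dex replicates 2 and 3. It passed in both conditions in edgeR scaled by library size alone (0.19 and 0.16, adjusted p = 0.00305 and 0.00762). That scaling moved the median of all genes to 0.115 in Dex and 0.086 in vehicle, where it was 0.011 in limma in both. BAX was higher in vehicle by 0.22 (limma adjusted p = 0.0149), a call lost without WT-GR vehicle replicate 1 or S134A-GR vehicle replicate 1 (0.2 and 0.19, limma adjusted p = 0.0502 and 0.0659, over a range of 1.14e-05 to 0.0659). In Dex its difference was -0.04 (limma adjusted p = 0.609).

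To set the genes beside each other, levels were divided by the length of each gene's merged GENCODE exons, from 1089 bases for BCL2A1 to 11765 for BCL2. The authors' own annotation is not given in the sources used here, and isoform use is not seen in gene counts, so these levels per kb are approximate. BCL2L1 and MCL1 were the most abundant members in every group. BCL2L1 averaged 16062 ± 362 normalized reads per kb in S134A-GR Dex, 9027 ± 230 in S134A-GR vehicle, 15282 ± 1095 in WT-GR Dex and 8507 ± 222 in WT-GR vehicle (SD, n = 3 each). MCL1 averaged 15644 ± 367, 9051 ± 96.5, 14117 ± 157 and 7955 ± 170.2 in the same groups. Their ranges overlapped in both S134A-GR groups, while in both WT-GR groups every BCL2L1 value lay above every MCL1 value. Of the summed level per kb of the 4 pro-survival members, BCL2L1 made up 49.6 to 51.7% and MCL1 47.5 to 49.8% by group mean. BCL2 made up between 0.184 and 0.383% and BCL2A1 between 0.0287 and 1.39%. The pro-survival gene BCL2L2, not among the members, averaged 3847 to 4566 normalized reads in the groups and is not in this sum.

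**Figure D4:**
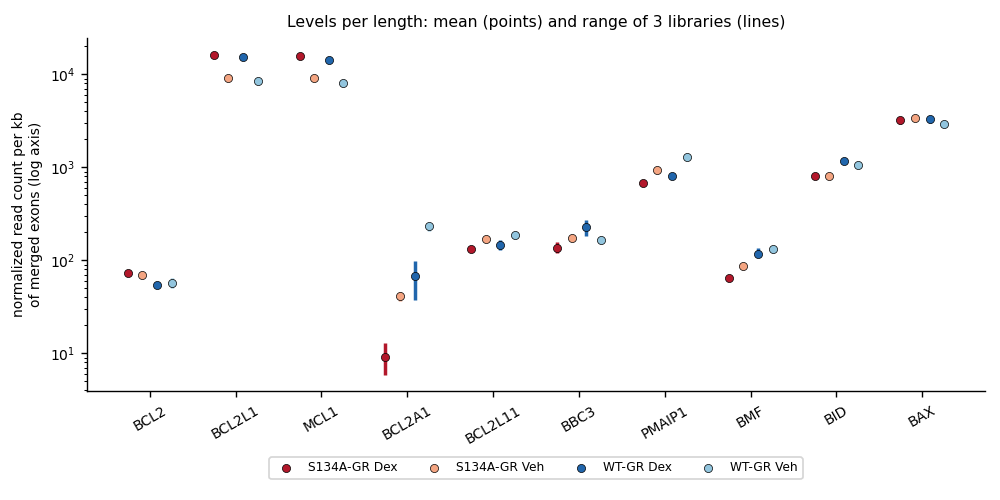
Normalized reads per kb of merged exons (log y axis) of each gene (x axis) in the 4 groups, with points for means and lines for the range of 3 libraries. BCL2L1, MCL1 and BAX stand highest in all groups, and BCL2A1 spans from 9.11 in S134A-GR Dex to 233.8 in WT-GR vehicle.

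BAX was the third member per kb in every group, at 3187 ± 237 in S134A-GR Dex, 3371 ± 130.0 in S134A-GR vehicle, 3288 ± 283 in WT-GR Dex and 2899 ± 93.6 in WT-GR vehicle. BID and PMAIP1 followed, with BID above PMAIP1 in both Dex groups and PMAIP1 above BID in both vehicle groups, each time without overlap of the libraries. BBC3 and BCL2L11 overlapped in both S134A-GR groups, whereas BBC3 was above BCL2L11 in WT-GR Dex and below it in WT-GR vehicle. BCL2A1 ranked last in both S134A-GR groups at 9.11 and 41.2 normalized reads per kb, and in WT-GR vehicle it ranked above BCL2L11 at 233.8 against 189.2 without overlap.

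Ratios of levels per kb give the balance between partners in each library. MCL1 over PMAIP1 was 22.7, 24.6 and 22.6 in S134A-GR Dex, against 9.92, 9.35 and 10.2 in S134A-GR vehicle. It was 18.8, 17.7 and 16.4 in WT-GR Dex, against 6.54, 6.21 and 5.88 in WT-GR vehicle. The 4 groups were fully separated on this ratio, which combines a gene that rose with one that fell. BCL2L1 over BAX averaged 5.05 ± 0.272 in S134A-GR Dex, 2.68 ± 0.107 in S134A-GR vehicle, 4.65 ± 0.109 in WT-GR Dex and 2.94 ± 0.033 in WT-GR vehicle (SD, n = 3 each). BCL2L1 over BCL2L11 averaged 121.3 ± 9.67, 53.2 ± 2.81, 106.4 ± 20.4 and 45.1 ± 3.89 in the same groups. No test was run on these ratios, and they are ratios of mRNA, not of protein.

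For the rest of the pathway, 3 lists of genes were used, which were chosen with earlier results of these data known. Of 13 other BCL2 family genes 10 were tested. In S134A-GR cells 1 rose with Dex, the effector BAK1 (log2 difference 0.27), and 2 fell, the pro-survival gene BCL2L2 (-0.25) and BNIP3 (-0.24), which acts in mitochondrial autophagy. In WT-GR cells BAK1 (0.31) and the effector-like gene BOK (0.39) rose, and BCL2L2 (-0.2) and BNIP3L (-0.22) fell. Over all tested genes 15.7% passed in S134A-GR and 27.9% in WT-GR cells. The list's median was -0.09 in S134A-GR cells and -0.04 in WT-GR cells. Against WT-GR cells, 6 of the 10 were lower and 0 higher in limma in S134A-GR Dex, where 6 had an unadjusted p under 0.05 and 0 were higher in edgeR or DESeq2. In vehicle 3 were lower and 0 higher, where 4 had an unadjusted p under 0.05 and 0 were higher in edgeR or DESeq2. Over all tested genes 49.7% passed in Dex and 50.5% in vehicle, counting both directions. The list's calls in either direction, 6 of 10 and 3 of 10, were thus near that share and below it. By direction, 4201 of the 15957 tested genes were lower and 3730 higher in Dex, and 4257 lower and 3804 higher in vehicle. The largest called differences of the list were those of BAD, a BH3-only gene, at -0.6 in Dex and -0.37 in vehicle, and of BNIP3L at -0.48 and -0.56. With scaling by library size only, 4 and 2 were lower.

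Of 18 genes of the mitochondrial machinery all were tested. Of these 1 rose with Dex in S134A-GR cells, the channel gene VDAC2 (0.17), and 1 fell. In WT-GR cells 2 rose, HTRA2 (0.4), whose protein is a mitochondrial protease, and AIFM1 (0.12), and 4 fell, among them the cytochrome c gene CYCS (-0.25) and the initiator caspase gene CASP8 (-0.14). With Dex 2 of 18 thus passed in S134A-GR cells and 6 of 18 in WT-GR cells, where 15.7% and 27.9% of all genes did. The calls of VDAC2 and AIFM1 were lost in edgeR with scaling by library size only (0.15 and 0.06, adjusted p = 0.105 and 0.338). That of CASP8 was lost in edgeR with TMM scaling (-0.13, adjusted p = 0.0529). The machinery's median was 0.01 in S134A-GR cells and -0.03 in WT-GR cells, against -0.02 over all tested genes. Between genotypes 5 were higher and 6 lower in Dex and 5 higher and 7 lower in vehicle, where 49.7% and 50.5% of all genes passed. With scaling by library size only these counts were 8 and 4 in Dex and 6 and 5 in vehicle, and 1 rose and 6 fell with Dex in WT-GR cells. The nuclease gene ENDOG was higher in S134A-GR cells by 0.82 in Dex and 1.18 in vehicle, and the caspase gene CASP6 by 0.5 and 0.34. ENDOG shares 39.2% of its exon bases with SPOUT1 on the opposite strand, HTRA2 20.8% with LOXL3 and 16.1% with AUP1, and BAD 23.7% with GPR137. Reads of these pairs cannot be fully told apart either.

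**Figure D5:**
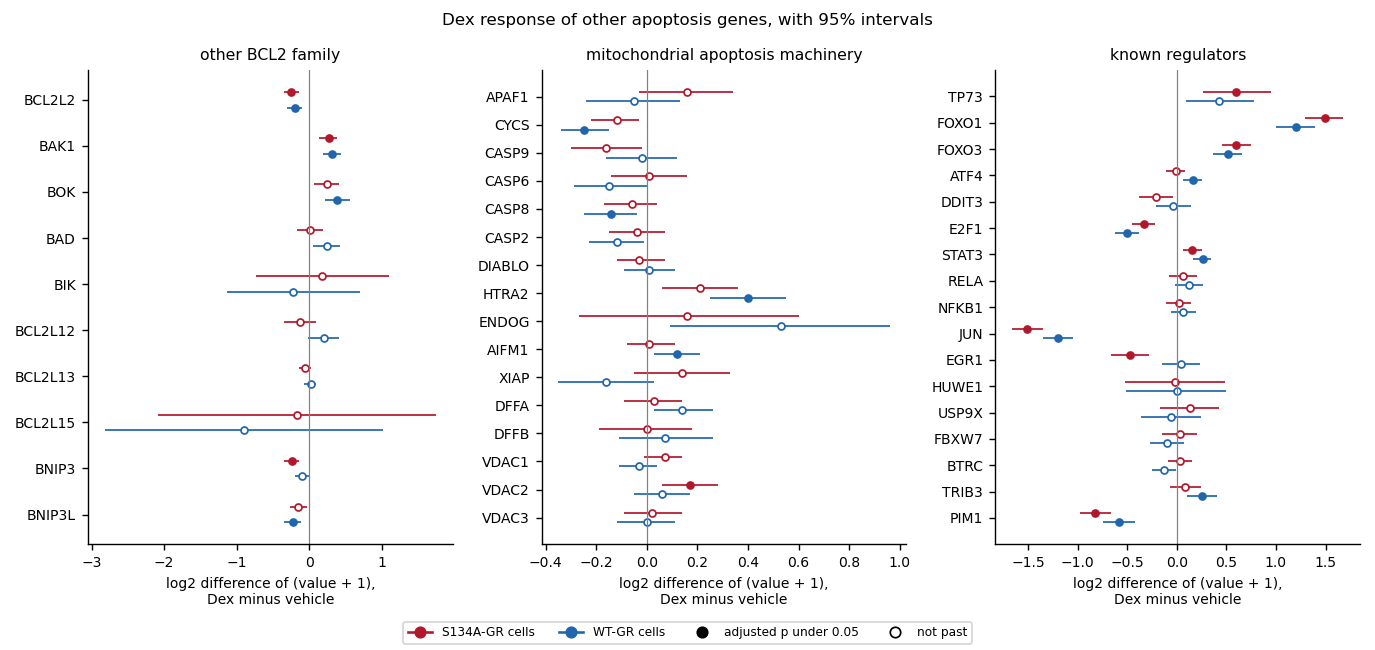
Log2 difference of (value + 1), Dex minus vehicle (x axes), with 95% intervals, of genes of 3 lists (rows; some tested genes are not drawn) in S134A-GR cells (red) and WT-GR cells (blue), filled where the adjusted p is under 0.05. FOXO1 lies at 1.49 and 1.2 and JUN at -1.51 and -1.2, and most machinery genes lie within 0.3 of 0.

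Of 18 known regulators of the family, 4 rose and 4 fell with Dex in S134A-GR cells, and 5 rose and 3 fell in WT-GR cells, with a median of 0.02 in both, where 15.7% and 27.9% of all genes passed. FOXO1 and FOXO3, transcription factors known to activate BCL2L11, BBC3 and BMF, rose by 1.49 and 0.6 in S134A-GR cells and by 1.2 and 0.52 in WT-GR cells (limma adjusted p = 3.81e-08 and 1.85e-05, and 3.72e-07 and 8.17e-05). BCL2L11 itself fell in both genotypes. JUN, the AP-1 subunit that takes part in stress-induced BCL2L11 and BBC3 expression, fell by 1.51 in S134A-GR cells and by 1.2 in WT-GR cells. It averaged 11049 ± 305 normalized reads in S134A-GR Dex, against 31358 ± 40.3 in S134A-GR vehicle, with 13239 ± 1678 in WT-GR Dex, against 30218 ± 996 in WT-GR vehicle (SD, n = 3 each). The kinase gene PIM1, whose product inactivates BAD, fell by 0.82 in S134A-GR cells and by 0.58 in WT-GR cells. EGR1 fell in S134A-GR cells (-0.47, limma adjusted p = 0.00173), and its value in WT-GR cells was 0.04 (limma adjusted p = 0.787). NFKB1 did not pass with Dex in either genotype. Between genotypes 4 regulators were higher and 8 lower in S134A-GR cells in Dex, and 4 and 8 in vehicle, where 49.7% and 50.5% of all genes passed. With scaling by library size only, 5 were higher and 6 lower in Dex, and 4 rose and 5 fell with Dex in WT-GR cells. The lowest was PIM1 (-0.86 in Dex and -0.61 in vehicle). The highest was TP73 (0.77 in Dex and 0.6 in vehicle, limma adjusted p = 0.00137 and 0.00685). Also lower were the stress factors ATF4 (-0.53 in Dex and -0.36 in vehicle), known to activate PMAIP1, and TRIB3 (-0.77 and -0.6), and STAT3 (-0.64 and -0.54), known to activate MCL1 and BCL2L1.

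For each member, the 3 tested genes whose log2 values followed it most closely over the 12 libraries were looked up by Pearson's r, as a description with no test. The libraries fall into 4 groups, so r mostly reflects the group means. BCL2L1 was nearest to MYC, MT1X and ITGA5 (r = 0.997, 0.996 and 0.996), and MYC's log2 differences with Dex, 0.89 in S134A-GR cells and 0.8 in WT-GR cells, were close to those of BCL2L1. MCL1 was nearest to MAOA, SMIM3 and ITGA10 (r = 0.996, 0.995 and 0.994). BCL2A1 was nearest to RIN2, FEN1 and GPATCH11 (r = 0.983, 0.982 and 0.98). For PMAIP1 the nearest was RASA1 (r = 0.991), for BMF ARAP1 (r = 0.984), for BID ZNF747 (r = 0.983), for BBC3 XRCC1 (r = 0.969), for BAX TINF2 (r = 0.967), for BCL2 POLR3B (r = 0.961) and for BCL2L11 PTPN22 (r = 0.945). XRCC1, like BBC3, had log2 differences with Dex of opposite sign, -0.18 in S134A-GR cells and 0.19 in WT-GR cells.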

How the data were processed

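The 12 mRNA libraries were sequenced on a HiSeq2500, per the labels. The deposited values are a normalized signal, each being reads over a library size factor. The submitters' processing notes name FastQC 0.11.7, featureCounts of Subread, DESeq2 1.22.2 and hg38, without roles. Aligner, annotation and strand setting were not given. Whole reads were recovered for 100% of values within 0.01 reads. Dex files list 26485 names beside 19907 values. Their values correlated with vehicle values across genes by line (r = 0.9822 to 0.986) and not by name (r = -0.0059 to -0.004), so lines were used.

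Genes that reached a value of 10 in 3 or more libraries entered the test, on log2(value + 1) with limma 3.58.1 (R 4.3.3, trend), with all 12 libraries and 1 coefficient per group, and p-values were adjusted over 15957 genes by the Benjamini-Hochberg method at 0.05. Differences on this scale understate the change of low genes. Alternatives used edgeR 4.0.16 and DESeq2 1.42.0 on the recovered reads, pseudocounts of 0.5 and 5, no filter or a filter of 50, a replicate block, library weights and left-out libraries. The limma fit was tested on simulated data. The members and lists were chosen with earlier results of these data known. All members are named, and from each other list at most the 4 called genes with the largest change in a comparison. The regulators NFKB1, RELA, ATF4 and EGR1 were also named, after their values were seen. Some list genes are counted but not reported here by name.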

Additional observations from a re-analysis of the deposited data

Results flagged for a closer look

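BBC3 values lay on opposite sides of vehicle in the 2 genotypes: all 3 S134A-GR Dex libraries lay below, and all 3 WT-GR Dex libraries above, the vehicle libraries of their genotype. The S134A-GR minus WT-GR difference of the log2 responses was -0.82. That difference itself did not pass in limma's test (adjusted p = 0.0914). Within S134A-GR cells the Dex difference did not pass (-0.36, limma adjusted p = 0.1). Within WT-GR cells it passed (0.46, limma adjusted p = 0.024), a call lost under 4 alternatives, at adjusted p of up to 0.099.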

How the results depend on the processing

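Each of the 50 member results (10 genes in 5 comparisons) was recomputed under up to 23 alternatives. Of 1140 values, 1074 kept their direction and side of the threshold, 17 lost a call, 25 gained one and 24 changed sign, and 27 of the 50 results kept both under every alternative run. With 3 libraries a group, small differences are not resolved, and BCL2A1 rests on as few as 6 reads. WT-GR Dex replicates 2 and 3 were left out together because an earlier account of these data set them apart, which leaves 1 library in that group and borrows its spread from the others. Where values changed, the cause was not tested.

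The number of members with a called difference of responses was 1 in DESeq2, 2 with library weights, 3 without WT-GR Dex replicates 2 and 3, and 0 to 2 when 1 library was left out. Leaving out 1 library gave 5 to 8 called members for Dex in WT-GR cells, 5 to 7 in S134A-GR cells, 7 to 8 for genotype in Dex and 5 to 7 in vehicle. Sign changes in the difference of responses were BCL2L1 (0.03 with library size only, 0.01 with weights, -0.05 to 0.05 with 1 library left out, being 0.0 without S134A-GR vehicle replicate 1 and 0.01 without WT-GR vehicle replicate 1 or S134A-GR Dex replicate 1), MCL1 (0.0 with library size only), BCL2A1 (0.02 with a pseudocount of 5, 0.47 without WT-GR Dex replicates 2 and 3, -0.64 to 0.03 with 1 library left out, the highest without WT-GR Dex replicate 3) and BCL2L11 (-0.19 with weights, and -0.07, -0.03, -0.02 and -0.02 without WT-GR Dex 1, WT-GR vehicle 1, S134A-GR vehicle 2 or S134A-GR Dex 1, in a range up to 0.11). For genotype in Dex they were BAX (0.07 with library size only, 0.0 with weights, 0.02 without replicate 1 of either Dex group, in a range of -0.1 to 0.02), and BCL2L1 (-0.04) and BCL2L11 (0.05) without WT-GR Dex replicates 2 and 3. For Dex they were BMF (0.04 without those 2 libraries) and BCL2 (0.02 without WT-GR vehicle replicate 1, in a range of -0.16 to 0.02) in WT-GR cells, and BID (0.0 without S134A-GR Dex replicate 2).

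Over all genes, the count for the difference of responses was 66 in limma, 506 in DESeq2, 2854 with library weights, 25 with the replicate block, 2550 without WT-GR Dex replicates 2 and 3, and 26 to 1604 with 1 library left out (26 without WT-GR vehicle replicate 2, 1604 without WT-GR Dex replicate 3). For Dex in S134A-GR cells it was 2513 in limma and 5116 with weights. For Dex in WT-GR cells it was 4455 in limma, 2490 with only the compared groups, 7113 with weights and 2963 without WT-GR vehicle replicate 2. Scaling by library size only gave 5347 genes higher and 2896 lower for genotype in Dex, against 3730 and 4201 in limma, 4849 and 3285 against 3804 and 4257 in vehicle, and 1448 and 3023 against 2216 and 2239 for Dex in WT-GR cells.

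Libraries with the same replicate number did not deviate together in their values (correlations of -0.09 to 0.06), so no pairing by number was seen there. Replicate 1 of both WT-GR groups was the shallowest, at 56.4 M reads in vehicle and 56.9 M in Dex. Whether the numbers mark a shared culture or run cannot be told from these values. With the replicate block, 6 and 6 members were called for Dex, 0 for the difference and 7 and 7 for genotype, and BBC3's difference had a limma adjusted p of 0.199.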
